A study of Oryza sativa Japonica Group with 6 samples.

Results

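Shoots of rice seedlings held for 24 h at 13 °C were compared with shoots held at 25 °C across the whole transcriptome. The comparison used 4 of the 6 libraries of the series, and 19429 of the 55800 loci in the deposited table. A locus was tested when its identifier was written LOC_Os in exactly that case, which 32150 loci were, and when its level reached an RPKM (reads divided by gene length in kb and scaled to the library's total) of 1 in at least 2 of the 6 libraries. Of the tested loci, 13465 (69.3%) carry a description taken from a protein match in the table.

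All libraries came from the japonica rice cultivar Lijiangxintuanheigu (LTH), with no mutation or transgene named in the labels. The seedlings were 2 weeks old and the part above ground, stems and leaves, was frozen whole. There were 2 biological replicates at 25 °C, the warm control, 2 at 13 °C and 2 at 11 °C, and the series is about the leaf rolling that cold causes in seedlings. The times of collection are not given, so temperature and time of day cannot be told apart in any difference below. How many plants went into a library is not stated.

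Rice is a plant of warm climates, and temperatures well above freezing already slow its enzymes, stiffen its membranes and leave its leaves absorbing more light than cold carbon metabolism can use. Plants meet chilling with regulators of the DREB1 (CBF) family, with sugars and protective proteins, and with changes in photosynthetic and translational genes. Many of these genes are also driven by the circadian clock, which itself responds to temperature.

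The libraries held about 15964800 to 18754700 reads, recovered from the RPKM steps, so that 1 read on a gene of 1 kb was worth an RPKM of 0.0533 to 0.0626. The libraries with replicate number 1 held more reads of 84 loci that match plastid- or mitochondrion-encoded proteins, 1.23% against 0.0704% at 25 °C and 3.995% against 0.150% at 13 °C. These organelle-type loci were kept out of the gene lists, and a list's share of reads below is of the reads on the other tested loci. Of the 84, 1 was called higher and 1 lower (19 and 2 with the replicate number as a term of the fit, the replicate block). In the fit without replicate 2 at 13 °C, 13 of them were called higher, and 5 without replicate 1 at 25 °C. Of the leaf markers, all 5 were detected, and their summed level was 32340 and 46002 RPKM at 25 °C and 16658 and 16992 at 13 °C. Rubisco activase made up most of that sum, and without it the other 4 summed to 5323 and 9373 RPKM at 25 °C and 12512 and 12087 at 13 °C, so the direction of the sum rests on 1 gene. Of the 5, activase and CAB2R fell and the Rubisco small subunit RbcS2 was called higher, the last not under either scaling, with the replicate block or without any 1 library at 11 or 13 °C. CAB2R lost its call without either library at 13 °C or replicate 2 at 25 °C. The root markers summed to 18.97 and 13.5 RPKM at 25 °C and 12.6 and 12.02 at 13 °C, nearly all of it the silicon channel Lsi1, with RCc3 at 0 in these 4 libraries. The pollen and anther markers YY1 and MST8 reached at most 0.117 RPKM. Lsi2, NRT2.1, the meristem markers OSH1 and OSH15 and the anther marker RTS carry upper-case identifiers, under which every locus is 0 in the replicate 2 libraries, so their zeros are no readings. In whole shoots, fewer cells of a type and less RNA per cell cannot be told apart.

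At 13 °C, 5122 loci were higher and 3304 were lower than at 25 °C, 26.4% and 17.0% of those tested and 43.4% together. A locus was called higher or lower when limma's test on log2(RPKM + 1) gave a Benjamini-Hochberg adjusted p below 0.05, and all differences below are on that log2 scale, 13 minus 25 °C, unless a fold of mean RPKM is named. In brackets, a difference is followed by its adjusted p. In every called locus the 2 libraries at 13 °C lay on the same side of both libraries at 25 °C. The same sign within replicate 1 and within replicate 2 follows from this and is no further check. The 2 groups did not overlap at 70.4% of all tested loci, so a lack of overlap alone is no sign of a change. The median called rise was 1.35 and the median called fall -1.31. Rises of more than 4 units were found at 105 loci and falls of more than 4 at 83. For gene lists, counts near 26.4% and 17.0% show nothing particular to the list.

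The split between rises and falls depended on how libraries were scaled. The median difference of all tested loci was 0.12, and rises made up 60.8% of the calls. With libraries brought to a common trimmed mean the median was -0.01 and rises were 51.8% of the calls, and with quantile scaling -0.03 and 49.9%. Small differences are therefore read against that shift. Under at least 1 of these scalings the order of rises and falls turned among sugar transport, peptidase, splicing factor, WRKY, NAC, MYB, zinc finger, gibberellin, light and flowering, ion transporter and antioxidant genes, so no direction is given for these lists. Libraries with the same replicate number varied together, and with that number as a term beside temperature, the replicate block, 7129 loci were higher and 5099 lower. List counts are also given with the block where they differ by more than 1.5 times. A list count under another setting, or without 1 library, is to be read against all loci under that same setting. Of the 19429 loci, 5132 were higher and 4766 lower with the trimmed mean, and 4897 and 4922 with quantile scaling. The block's counts over all loci are those just given. Without the replicate 2 library at 13 °C, 3326 loci were called higher, and without the replicate 1 library at 13 °C, 2025 were called lower, whereas 3137 rises and 1863 falls were called whichever of the 6 libraries was left out.

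**Figure D1:**
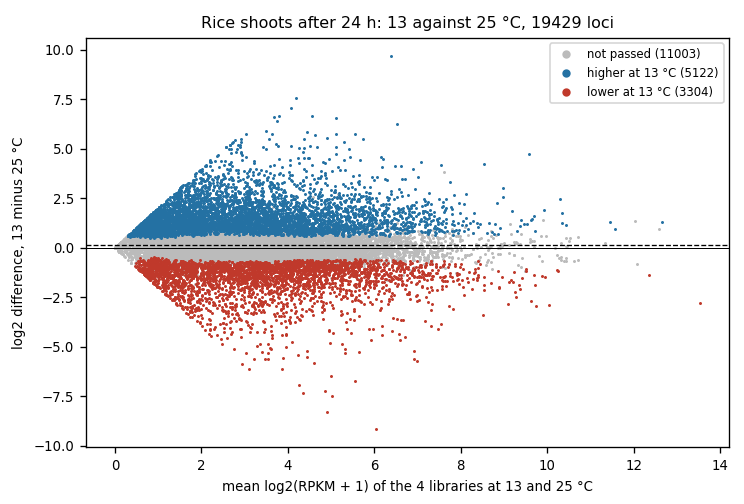
Each point is 1 of the 19429 tested loci, with its mean log2(RPKM + 1) over the 4 libraries at 13 and 25 °C on the horizontal axis and its log2 difference, 13 minus 25 °C, on the vertical axis. Blue points are the 5122 loci called higher at 13 °C, red points the 3304 called lower, grey points did not pass, and the dashed line is the median difference of 0.12.

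Among loci with a description, the largest rise was in thiamine (vitamin B1) synthesis. Thiamine thiazole synthase 2 (LOC_Os07g34570, chromosome 7, 20724563 to 20726098 in the table's coordinates), the plastid enzyme behind the thiazole ring, stood at 1.71 and 2.20 RPKM in the libraries at 25 °C, replicate 1 first, and at 2155 and 2698 RPKM at 13 °C. Both libraries at 13 °C stood far above both at 25 °C, where the transcript was barely detected. The difference was 9.68 ± 0.23 (standard error of the fit), adjusted p = 2.08e-06. Phosphomethylpyrimidine synthase (LOC_Os03g47610 on chromosome 3, 26952048 to 26959200), the source of the pyrimidine ring, stood at 0.389 and 0.280 RPKM at 25 °C and 237 and 268 RPKM at 13 °C, a rise of 7.57 ± 0.22 (adjusted p = 4.15e-06). The pair supplies both rings of the vitamin and holds the first and the second place among the described rises.

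The 6 thiamine genes tested gave 3 rises and 0 falls. The third riser was thiamine pyrophosphokinase 1 (LOC_Os01g70580, 3.34 and 5.34 against 14.97 and 20.1 RPKM, 1.81, adjusted p = 0.00247), which turns thiamine into its active cofactor. The other pyrophosphokinases differed by 0.49 (LOC_Os01g25440, adjusted p = 0.18) and 0.84 (LOC_Os05g30454, 0.0567), and the bifunctional enzyme of the pathway by 0.38 (LOC_Os12g09000, 0.388). The replicate block called both of these pyrophosphokinases higher (0.0167 and 0.0029), which made 5 rises. These 4 members were named after their values were seen.

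The other 6 of the 8 largest rises were genes of several functions. A basic secretory protease (LOC_Os10g34930) stood at 0.825 and 2.03 RPKM at 25 °C and 187 and 305 at 13 °C, a rise of 6.67 ± 0.37 (adjusted p = 2.0e-05). EXORDIUM (LOC_Os02g52010), whose Arabidopsis namesake is an apoplast protein of brassinosteroid-responsive growth, rose by 6.67 ± 0.22 (7.39e-06) from 0.353 and 0.383 to 159.5 and 119 RPKM. A co-chaperone of the DnaJ subfamily B (LOC_Os03g18870) rose by 6.62 ± 0.29 (1.28e-05) from 0.0541 and 0.565 to 107 and 146 RPKM. All 3 were near 0 at 25 °C and over 100 RPKM in each library at 13 °C. The remaining 3 act in the plastid. The starch-branching enzyme 2-2 (LOC_Os04g33460), which adds branch points to starch, went from 1.78 and 3.57 to 268 and 411 RPKM, 6.54 ± 0.32 (1.72e-05). Sigma factor sigC (LOC_Os05g51150), a nuclear-encoded subunit that directs the plastid RNA polymerase to promoters, went from 0.556 and 0.374 to 94.1 and 161 RPKM, 6.41 ± 0.31 (1.72e-05). Thioredoxin-like 3-1 (LOC_Os02g53400), a plastid redox protein, went from 0.369 and 0.578 to 84.1 and 87.5 RPKM, 5.88 ± 0.21 (7.39e-06), and of the 8 its 2 values at 13 °C were the closest to each other in ratio.

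The largest fall among described loci was in PsbR, a subunit at the oxygen-evolving side of photosystem II (LOC_Os07g05360, chromosome 7, 2453960 to 2456611). It stood at 1446 and 1677 RPKM at 25 °C and at 1.76 and 1.76 RPKM at 13 °C, a difference of -9.14 ± 0.23 (adjusted p = 2.08e-06). Both libraries at 13 °C stood far below both at 25 °C. Its level at 11 °C was 132 and 95.6 RPKM, above that at 13 °C. A short neighbouring locus with the same description, LOC_Os07g05365, fell from 14.5 and 19.7 RPKM to 0 in both libraries, and reads of the 2 may be shared. The paralog LOC_Os08g10020, named after its values were seen, was the more abundant PsbR gene, at 6182 and 5443 RPKM at 25 °C and 3421 and 3080.00 RPKM at 13 °C, and did not pass the test (-0.84, adjusted p = 0.064). Its groups did not overlap. It was called lower by limma's voom on the recovered reads and by limma without a mean-variance trend, but not with the replicate block (0.118).

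Among the 7 other largest falls were enzymes of walls, sulfur and lipid carbon. Lichenase-2 (LOC_Os05g31140), which cuts the mixed-linkage glucans of grass walls, fell from 535 and 541 to 0.596 and 0.798 RPKM, -8.31 ± 0.46 (adjusted p = 2.07e-05). Thiosulfate sulfurtransferase 18 (LOC_Os12g24020), a sulfur-transferring rhodanese, fell from 393 and 167 to 0.456 and 0.761 RPKM, -7.33 ± 0.40 (2.0e-05). Isocitrate lyase (LOC_Os07g34520), the entry enzyme of the glyoxylate cycle that turns fat into sugar, fell from 76.3 and 64.6 to 0.0223 and 0.0202 RPKM, -6.12 ± 0.25 (1.14e-05). These enzymes were at or under 1 RPKM in every library at 13 °C. Peroxidase 15 (LOC_Os10g02040) fell by 6.95 (7.39e-06), the immune receptor annotated RPM1 (LOC_Os08g42700) by 6.14 (1.14e-05), a protein with an EG45-like domain (LOC_Os08g37930) by 5.86 (1.14e-05) to 0 in both libraries, and secoisolariciresinol dehydrogenase of lignan synthesis (LOC_Os07g46852) by 5.64 (2.40e-05). All 16 of the largest rises and falls were called under every alternative setting run.

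**Figure D2:**
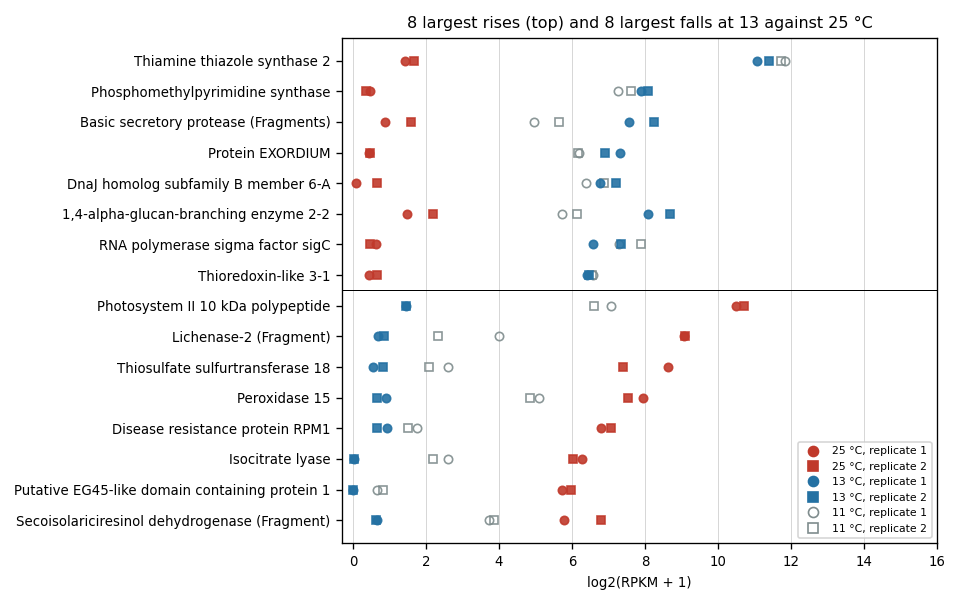
Level of the 8 loci with the largest rise (above the line) and the 8 with the largest fall (below it) as log2(RPKM + 1), 1 point a library, circles for replicate 1 and squares for replicate 2. Red is 25 °C, blue is 13 °C and open grey is 11 °C, and red and blue points do not overlap in any row, as in every called locus.

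Of the most abundant described and called transcripts, the 5 highest at each temperature were nearly all genes of photosynthesis, and they moved in both directions. Rubisco activase (LOC_Os11g47970), which keeps the carbon-fixing enzyme Rubisco active, was the highest of these at 25 °C, at 27017 and 36629 RPKM, and stood at 4147 and 4905 RPKM at 13 °C. It was 7.03 times lower (-2.80 ± 0.38, adjusted p = 7.73e-04). The chloroplast fructose-bisphosphate aldolase (LOC_Os11g07020) went from 8152 and 8835 to 3116 and 3416 RPKM (-1.38, 0.0134), the photosystem I subunit PsaK (LOC_Os07g05480) from 3222 and 2516 to 389 and 388 (-2.87, 1.11e-04) and the light-harvesting protein P4 of photosystem I (LOC_Os08g33820) from 2559 and 2222 to 273 and 353 (-2.94, 1.18e-04). Each of these falls left the groups far apart, but the aldolase lost its call without either library at 13 °C.

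The highest at 13 °C was a Rubisco small subunit (LOC_Os12g17600), at 3224 and 5236 RPKM at 25 °C and 10523 and 9566 RPKM at 13 °C (1.29, adjusted p = 0.03). A second small subunit gene (LOC_Os12g19381) went from 1711 and 2815 to 4224 and 4299 RPKM (0.96, 0.0472). Neither rise was called when a library at 13 °C was left out, nor under trimmed-mean or quantile scaling, nor with the replicate block (0.0869 and 0.0584), and reads of these near-identical genes may be shared. CP12-1 (LOC_Os01g19740), a small protein that ties up Calvin cycle enzymes in the dark, rose 25.7 times, from 112 and 195 to 3389.9 and 4503 RPKM (4.71 ± 0.34, 4.81e-05). Oxalate--CoA ligase (LOC_Os04g58710), the first enzyme of a pathway that breaks down oxalate, went from 2087 and 1509.9 to 4451 and 4386 RPKM (1.31, 0.00775) and lost its call without either library at 13 °C.

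Genes of the translation machinery mostly rose. Of 206 genes for proteins of the cytosolic ribosome, 178 rose and 2 fell, 86.4% against 26.4% of all tested loci, with a median difference of 1.63 against 0.12 over all loci. The list took 0.806% and 0.779% of the reads at 25 °C and 2.22% and 2.24% at 13 °C, and the replicates lay close together at each temperature. The strongest riser was a gene for the large-subunit protein L30 (LOC_Os01g59730), at 0 and 1.63 RPKM at 25 °C and 20.2 and 27.5 at 13 °C (3.92, adjusted p = 3.00e-04). The acidic stalk protein P2A (LOC_Os02g32760), part of the stalk that binds elongation factors, went from 0.348 and 1.21 to 16.3 and 16.99 RPKM (3.35, 1.27e-04). Only an L18a-like gene (LOC_Os05g49020, -1.15, 0.0143) and a gene for S13-2 (LOC_Os02g45490, -1.06, 0.0185) fell, and both lost their calls without replicate 1 at 13 °C. Between 155 and 173 rises were called with any library left out and 168 under trimmed-mean scaling. Called falls numbered 6 with the replicate block and 1 without either library at 25 °C. Close copies encode many of these proteins, and reads may be shared among them.

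Assembly of ribosomes followed the same direction. Of 87 ribosome biogenesis and nucleolar genes, 65 rose and 3 fell (median 1.65), and their share of reads went from 0.141% and 0.115% to 0.282% and 0.317%. BRX1 (LOC_Os02g37870), which assembles the large subunit, stood at 1.95 and 1.93 RPKM at 25 °C and 40.6 and 44.2 at 13 °C (3.88, adjusted p = 2.10e-05). A subunit of the H/ACA particle that guides pseudouridine formation in rRNA (LOC_Os06g16290) went from 0.844 and 0.935 to 22.2 and 20.3 RPKM (3.56, 2.88e-05). Against this direction, nucleolin 2 (LOC_Os08g33350) fell from 10.3 and 12.2 to 2.53 and 3.83 RPKM (-1.56, 0.00243). Without replicate 2 at 25 °C, 4 falls of the list were called, without any other single library 1, and with the replicate block 6.

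Translation factors and tRNA ligases numbered 136, of which 66 rose and 3 fell (median 0.69). Of 75 RNA helicases, which unwind RNA and thereby act on structures that cold stabilises, 36 rose and 2 fell (median 0.67). Chloroplast helicase 3 (LOC_Os03g61220), needed for plastid ribosome assembly in Arabidopsis and maize, went from 25.2 and 21.1 to 243 and 270.2 RPKM (3.42, adjusted p = 2.93e-05), and helicase 9 (LOC_Os12g41715) from 1.65 and 0.926 to 30.2 and 29.9 (3.78, 2.62e-05). The mitochondrial elongation factor Tu (LOC_Os03g63410) rose from 1.57 and 1.74 to 17.5 and 18.9 RPKM (2.86, 8.95e-05), while a chloroplast elongation factor Tu (LOC_Os02g38210) fell from 485 and 366 to 144 and 130.3 (-1.61, 0.00127). 37 translation genes and 22 helicases were called higher without replicate 2 at 13 °C. Falls of translation genes numbered 1 without either library at 13 °C and 10 with the replicate block, and no helicase fall was called without replicate 1 at 13 °C or replicate 2 at 25 °C. Under trimmed-mean scaling the falls numbered 4 among cytosolic ribosomal proteins, 6 in ribosome biogenesis, 8 among translation factors and 4 among helicases.

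Ribosomal proteins of the organelles, encoded in the nucleus, rose as well. Of 94 tested, 63 rose and 4 fell (median 1.37), and their share of reads was 0.254% and 0.275% at 25 °C and 0.470% and 0.524% at 13 °C. The S1 protein (LOC_Os05g45920) stood at 0.156 and 0.136 RPKM at 25 °C and 29.1 and 42.6 at 13 °C (4.98, adjusted p = 2.25e-05), and the chloroplast L12 (LOC_Os05g49320) at 0.420 and 0.439 and 27.1 and 24.4 (4.23, 1.91e-05). An L13 gene (LOC_Os05g15360) fell from 19.5 and 16.95 to 7.28 and 6.49 RPKM (-1.28, 0.00334). 1 fall was called without replicate 1 at 13 °C, 2 without replicate 2 at 13 °C or replicate 1 at 25 °C, and 8 with the replicate block.

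The machinery that transcribes and edits plastid RNA showed 19 rises and no falls among 30 genes (median 1.67). Beside sigC, its strongest riser was a DAG protein (LOC_Os08g04450), of a family needed for RNA editing in organelles, which went from 3.89 and 2.002 to 137 and 129.96 RPKM (5.13, adjusted p = 1.73e-05). Pentatricopeptide repeat proteins, which bind and process organelle transcripts, had 87 rises and 6 falls among 178 (median 0.63). The strongest, LOC_Os02g42210, went from 0.490 and 0.517 to 15.7 and 18.7 RPKM (3.59, 4.33e-05). When replicate 2 at 13 °C was left out, 55 rises were called, and 3 falls without replicate 1. Under trimmed-mean scaling the falls numbered 8 among organelle ribosomal proteins, 1 in plastid transcription and 13 among pentatricopeptide repeat proteins. In the last pair of lists the block gave falls numbering 1 and 14. The level of the 84 loci that match organelle-encoded proteins differed far more between replicates than between temperatures, and 82 did not pass in the main fit. Their median difference was 0.62 within replicate 1 and 0.63 within replicate 2, and 72 of the 84 differences were positive.

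**Figure D3:**
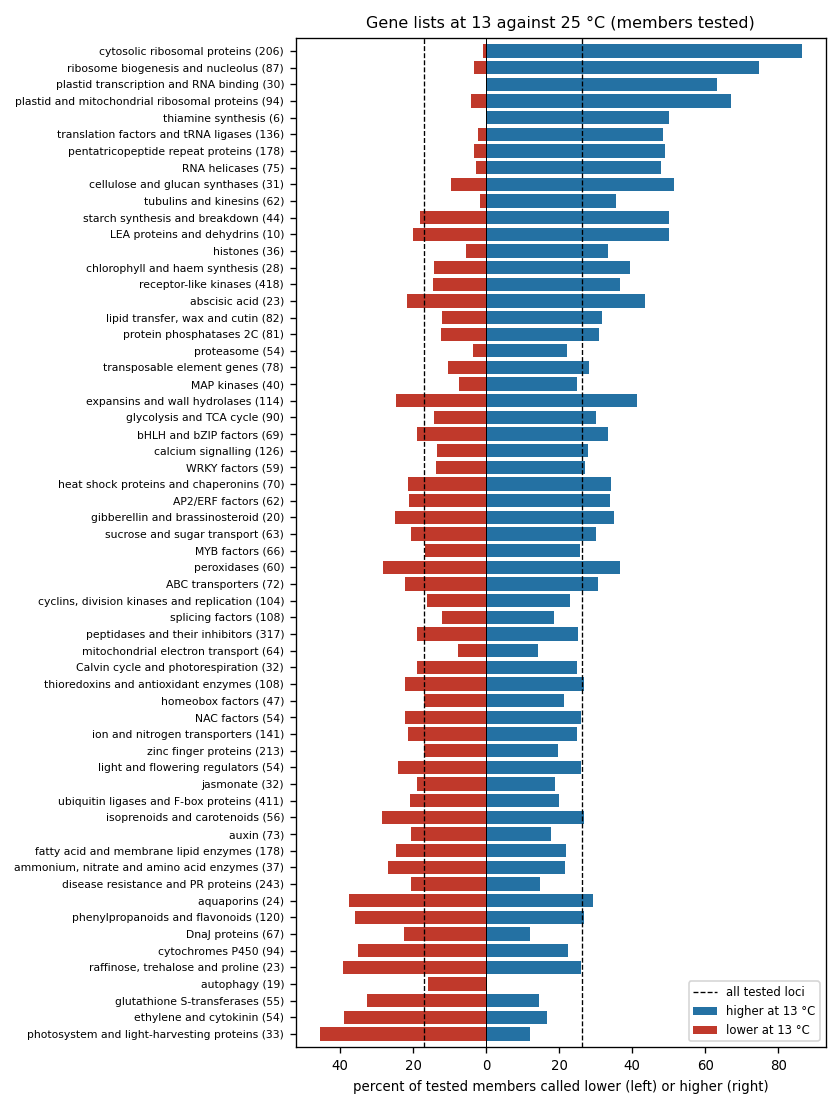
Share of the tested members of each of 60 gene lists (number of members in brackets) that were called higher at 13 °C (blue, to the right) or lower (red, to the left), in percent. The dashed lines mark 26.4% higher and 17.0% lower over all 19429 tested loci, and the cytosolic ribosome list reaches 86.4% higher while the photosystem list reaches 45.5% lower.

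In contrast to these lists, genes of the photosystems and their antennae fell more often than they rose. Of 33 tested, 15 fell, 4 rose and 14 did not pass, 45.5% lower against 17.0% of all tested loci, with a median of -0.84. Their share of reads was 3.57% and 4.29% at 25 °C and 1.79% and 2.01% at 13 °C. The fall was uneven across antenna proteins, which were named after their values were seen where they are neither PsbR, PsaK nor P4. The minor antenna protein CP29 (LOC_Os07g37240) went from 576 and 584 to 71.3 and 80.5 RPKM (-2.92, adjusted p = 8.91e-05), whereas CP24 (LOC_Os04g38410) stood at 170.1 and 173 and 162 and 212 (0.11, 0.729). CP26 (LOC_Os11g13890) stood at 648 and 1352 and 407 and 575 (-0.95, 0.074) with no overlap, and was called lower with the replicate block (0.0131), under trimmed-mean scaling and without replicate 1 at 25 °C. The PsaO subunit of photosystem I (LOC_Os04g33830) fell from 1161 and 1869 to 272 and 245 RPKM (-2.51, 3.79e-04), while PsaD (LOC_Os08g44680) stood at 605 and 1076 and 879 and 807 (0.06, 0.894), with 1 library at 25 °C below and 1 above both at 13 °C.

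The 4 photosystem genes that rose are given here in turn. PsbS, the sensor that turns excess light into heat in photosystem II, is encoded by 2 tested loci, which moved in opposite directions. One (LOC_Os01g64960) stood at 138 and 221 RPKM at 25 °C and 1378 and 1474 at 13 °C, 7.95 times higher (3.02 ± 0.28, adjusted p = 1.44e-04). The other (LOC_Os04g59440) stood at 228 and 193 RPKM and 28.6 and 29.00, 7.29 times lower (-2.82 ± 0.28, 1.70e-04). The sum of both was therefore higher at 13 °C in both libraries. A chlorophyll a/b binding protein listed as number 7 (LOC_Os09g26810) rose from 1.68 and 0.887 to 25.4 and 19.5 RPKM (3.37, 7.09e-05). A far more abundant locus with the same description (LOC_Os07g38960) fell from 576 and 1061 to 146 and 209 RPKM (-2.15, 0.00174). That locus was named after its values were seen. The photosystem II protein PsbW (LOC_Os05g43310) rose from 29.4 and 33.4 to 121 and 119 RPKM (1.91, 3.09e-04). The fourth was a processing protein of the D1 precursor (LOC_Os03g53640, 8.37 and 4.39 to 30.4 and 29.2 RPKM, 2.12, 7.34e-04), and it and PsbW, like the second PsbS gene, were named after their values were seen.

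Calvin cycle and photorespiration genes were called at the rate of all loci, with 8 rises and 6 falls among 32 (25.0% and 18.8%, median 0.33), and their share of reads went from 8.30% and 10.4% to 5.23% and 5.44%. Rubisco activase, described above, was its most abundant member at 25 °C. A second activase locus next to it (LOC_Os11g47980) fell from 125 and 79.5 to 1.23 and 1.07 RPKM (-5.55, adjusted p = 2.19e-05), and reads of the neighbours may be shared. The chloroplast fructose-1,6-bisphosphatase (LOC_Os06g45370), which commits carbon to regeneration and starch, rose from 1.05 and 1.13 to 24.9 and 34.3 RPKM (3.85, 4.63e-05). The aminomethyltransferase of the mitochondrial glycine cleavage system (LOC_Os04g53230), a step of photorespiration, rose from 66.5 and 112 to 262 and 277 RPKM (1.63, 0.00206). 5 rises were called without replicate 2 at 13 °C.

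Chlorophyll and haem synthesis had 11 rises and 4 falls among 28 tested genes (median 0.51). Protoporphyrinogen oxidase (LOC_Os01g18320) rose from 0.778 and 2.30 to 21.97 and 36.9 RPKM (3.61, adjusted p = 2.79e-04) and protochlorophyllide reductase B (LOC_Os10g35370), the light-driven step, from 7.55 and 12.01 to 52.9 and 76.7 (2.62, 3.57e-04). The subunits of magnesium chelatase, the enzyme that commits the pathway to chlorophyll, did not move together. ChlI (LOC_Os03g36540) rose from 11.5 and 12.3 to 47.5 and 46.1 RPKM (1.89, 2.39e-04) and ChlD (LOC_Os03g59640) from 9.92 and 12.9 to 36.4 and 50.7 (1.84, 0.00149), while the main ChlH gene (LOC_Os03g20700) fell from 133 and 152 to 62.9 and 70.8 (-1.08, 0.00355). ChlH is the subunit that binds the porphyrin, and these 3 were named after their values were seen. A vinyl reductase of the pathway (LOC_Os02g04510) fell from 87.8 and 107 to 15.5 and 22.5 RPKM (-2.31, 4.62e-04). Leaving out replicate 2 at 13 °C gave 7 rises, and trimmed-mean scaling or the replicate block 7 falls.

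**Figure D4:**
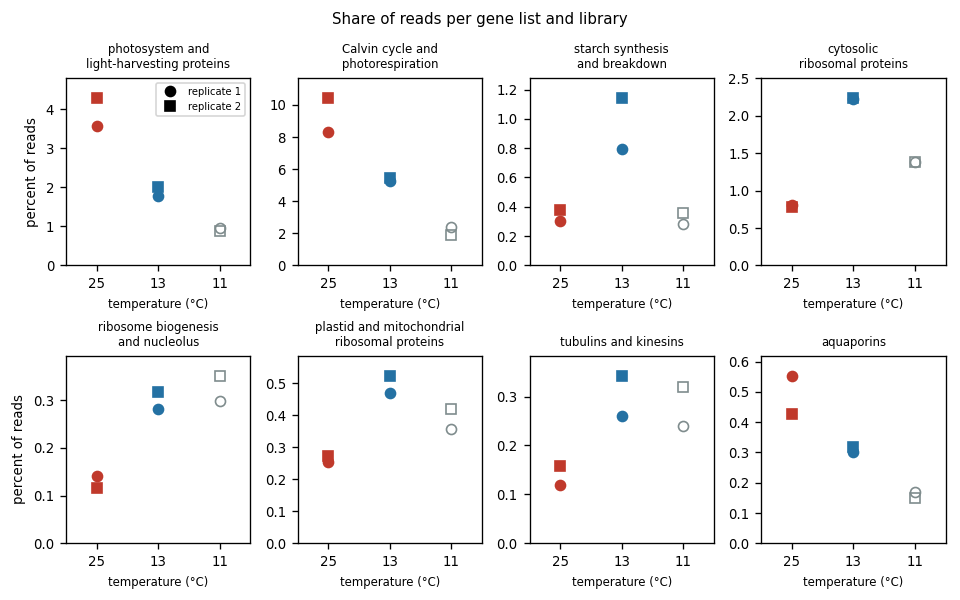
Percent of a library's reads on tested loci, organelle-type loci left out, that fell on each of 8 gene lists, by temperature. There is 1 point a library, circles for replicate 1 and squares for replicate 2, each vertical axis starting at 0. Photosystem, Calvin cycle and aquaporin lists are lower in both libraries at 13 °C than in both at 25 °C, and the other 5 lists are higher.

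Starch genes rose more often than they fell. Of 44 tested, 22 rose and 8 fell (median 0.93), and their share of reads was 0.301% and 0.379% at 25 °C and 0.793% and 1.14% at 13 °C. Risers included the branching enzyme above and enzymes that break starch down. A beta-amylase (LOC_Os07g35880), which releases maltose from starch, stood at 2.43 and 4.38 RPKM at 25 °C and 75.97 and 132 RPKM at 13 °C (4.56 ± 0.34, adjusted p = 5.48e-05). It was at 0.684 and 0.976 RPKM at 11 °C, so that its high level was seen in the libraries at 13 °C and not in the other 4. Other beta-amylases moved the other way, with the inactive form 9 (LOC_Os03g22790) falling from 72.6 and 91.1 to 7.79 and 9.87 RPKM (-3.07, 5.16e-05) and the chloroplast form 1 (LOC_Os10g32810) from 11.8 and 15.3 to 1.37 and 1.99 (-2.44, 2.21e-04). 5 falls were called without replicate 1 at 13 °C.

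Sucrose and sugar transport genes gave 19 rises and 13 falls among 63 (median -0.13). The exporter SWEET15 (LOC_Os02g30910), which lets sucrose out of cells, was listed at 0 and 0.0348 RPKM at 25 °C and at 28.7 and 39.5 at 13 °C (5.09, adjusted p = 1.45e-05). Sucrose-phosphatase 1 (LOC_Os01g27880), the last step of sucrose synthesis, rose 10.2 times from 14.3 and 12.5 to 123 and 149.7 RPKM (3.25, 3.75e-05). Both were near or below their level at 25 °C in the libraries at 11 °C, with 0 and 0.0340 and 2.08 and 2.32 RPKM. The neutral invertase CINV2 (LOC_Os01g22900), which splits sucrose, fell from 286 and 379.99 to 57.9 and 83.6 RPKM (-2.23, 4.52e-04). Leaving out replicate 2 at 13 °C gave 12 rises, and leaving out replicate 1 gave 8 falls. Trimmed-mean scaling gave 20 falls and the replicate block 21.

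Trehalose, raffinose and proline genes, 23 in all, gave 6 rises and 9 falls. These were 26.1% and 39.1%, against 26.4% and 17.0% of all tested loci. A trehalose-phosphate synthase (LOC_Os03g12360) rose from 4.61 and 5.83 to 51.7 and 67.8 RPKM (3.28, adjusted p = 7.12e-05) and trehalose-phosphate phosphatase 6 (LOC_Os08g31630) from 3.18 and 4.28 to 37.7 and 50.7 (3.25, 9.10e-05). The sugar phosphate made by the synthase acts as a signal of sucrose supply in plants. Probable synthases LOC_Os02g54820 (43.3 and 39.8 to 3.02 and 3.53 RPKM, -3.32, 3.28e-05) and LOC_Os09g20990 (17.2 and 16.6 to 0.801 and 1.07, -3.21, 4.63e-05) fell. 3 rises were called without replicate 2 at 13 °C.

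Glycolysis and the TCA cycle gave 27 rises and 13 falls among 90 genes. Enolase 1 (LOC_Os06g04510) rose 44.3 times, from 3.02 and 3.71 to 142 and 157 RPKM (5.11, adjusted p = 1.14e-05), and a chloroplast malate dehydrogenase (LOC_Os08g33720) from 2.70 and 2.96 to 95.9 and 124 (4.84, 1.45e-05). A plastid-type pyruvate dehydrogenase subunit alpha (LOC_Os04g02900) fell from 167 and 164 to 15.6 and 12.6 RPKM (-3.47, 2.54e-05) and the kinase that switches off the mitochondrial complex (LOC_Os07g44330) from 595 and 640.4 to 105 and 129.8 (-2.39, 1.37e-04). Among 64 genes of mitochondrial electron transport, 9 rose and 5 fell, 14.1% and 7.81%. Both strongest rises were alternative oxidases, which bypass proton-pumping complexes, LOC_Os04g51150 at 1.94 and 2.30 RPKM at 25 °C and 7.26 and 8.04 at 13 °C (1.47, 0.00264) and its neighbour LOC_Os04g51160 at 0 and 0.160 and 1.56 and 2.55 (1.48, 0.00346). Under trimmed-mean scaling 21 and 8 falls were called in the 2 lists, and 23 and 8 with the replicate block, which gave 20 rises in electron transport. Over all loci these settings gave 4766 and 5099 falls against 3304, and the block 7129 rises against 5122. 6 falls in glycolysis and the TCA cycle and 2 in electron transport were called without replicate 1 at 13 °C.

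Nitrogen assimilation genes gave 8 rises and 10 falls among 37. A nitrate reductase (LOC_Os02g53130) rose from 0.123 and 0.0534 to 19.5 and 23.8 RPKM (4.37, adjusted p = 1.72e-05), while the next enzyme of the pathway, nitrite reductase (LOC_Os01g25484), fell from 105 and 140.2 to 9.23 and 12.8 (-3.36, 5.16e-05). Asparagine synthetase 1 (LOC_Os03g18130), which stores nitrogen as asparagine, fell from 65.03 and 65.8 to 0.787 and 0.635 RPKM (-5.28, 1.72e-05). Glutamate decarboxylase 1 (LOC_Os03g13300), which makes GABA, rose from 0.583 and 0.380 to 16.3 and 18.2 RPKM (3.63, 4.81e-05). Called rises numbered 4 without replicate 2 at 13 °C or replicate 1 at 25 °C, and 5 falls without replicate 1.

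Cell wall genes changed often and in both directions. Of 114 genes for expansins, wall hydrolases and arabinogalactan proteins, 47 rose and 28 fell. A xyloglucan endotransglucosylase (LOC_Os06g48200), of the family that cuts and rejoins wall glucans, was at 0 and 0.253 RPKM at 25 °C and 38.1 and 64.9 at 13 °C (5.50, adjusted p = 2.03e-05). Another member (LOC_Os06g22919) went from 32.2 and 46.7 to 0.117 and 0.141 RPKM (-5.14, 2.93e-05). Cellulose and glucan synthases rose at 16 of 31 loci and fell at 3 (median 0.72), with CESA5 (LOC_Os03g62090) going from 0.718 and 0.512 to 13.4 and 17.4 RPKM (3.33, 5.39e-05) and CESA1 (LOC_Os05g08370) from 1.74 and 2.53 to 19.8 and 26.2 (2.93, 1.13e-04). 7 rises of this list were called without replicate 2 at 13 °C, or 8 when replicate 1 at 25 °C was left out.

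Microtubule genes that passed the test nearly all rose. Of 62 genes for tubulins, kinesins and microtubule proteins, 22 rose and 1 fell (median 0.53), and their share of reads went from 0.119% and 0.158% to 0.260% and 0.343%. Tubulin beta-2 (LOC_Os03g01530) stood at 1.44 and 2.04 RPKM at 25 °C and 34.8 and 37.8 at 13 °C (3.77, adjusted p = 2.90e-05), and tubulin beta-6 (LOC_Os01g59150) at 0.162 and 0.0562 and 8.97 and 10.5 (3.27, 3.09e-05). The fall was in microtubule-associated protein 70-4 (LOC_Os03g11650, 3.54 and 5.68 to 0.491 and 0.631 RPKM, -1.82, 8.28e-04), and under trimmed-mean scaling or the replicate block 5 falls were called, and 8 under quantile scaling. Histone genes gave 12 rises and 2 falls among 36, led by H2A.5 (LOC_Os03g17100, 3.72 and 2.24 to 41.5 and 34.3 RPKM, 3.31, 8.17e-05) and H2AXb (LOC_Os03g51200, 0.903 and 1.57 to 16.3 and 18.6, 3.06, 8.97e-05). Histone falls numbered 0 without replicate 2 at 13 °C, 1 without replicate 1, 4 without replicate 2 at 25 °C, 4 under trimmed-mean scaling and 5 with the replicate block.

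Cell division genes were called about as often as all loci. Among 104 cyclins, division kinases and replication genes, 24 rose and 17 fell, 23.1% and 16.3% against 26.4% and 17.0%. The small subunit of DNA polymerase delta (LOC_Os03g03650) rose from 0.252 and 0.192 to 4.60 and 6.02 RPKM (2.36, adjusted p = 1.22e-04) and the kinase CDKF-1 (LOC_Os06g22820), which activates other division kinases, fell from 43.1 and 39.6 to 4.50 and 3.27 (-3.13, 4.62e-05). The replication clamp PCNA (LOC_Os02g56130) stood at 4.26 and 5.18 RPKM at 25 °C and 4.67 and 4.01 at 13 °C (-0.10, 0.771), and the mitotic kinase CDKB2-1 (LOC_Os08g40170) at 0.283 and 0.493 and 0.489 and 1.57 (0.50, 0.21). The ranges of both markers overlapped between the temperatures. 7 falls of the list were called without replicate 1 at 13 °C, or 11 when replicate 2 at 25 °C was left out, and the replicate block gave 41 rises.

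Circadian clock genes held some of the largest changes. Of 14 tested, 7 rose, 2 fell and 5 did not pass (median 1.16). OsLHY (LOC_Os08g06110), whose protein represses evening genes and peaks near dawn, stood at 1654 and 2446 RPKM at 25 °C and 251 and 386 at 13 °C, 6.43 times lower (-2.69 ± 0.30, adjusted p = 3.27e-04). OsPRR1 (LOC_Os02g40510), the rice counterpart of the Arabidopsis evening gene TOC1, stood at 1.36 and 1.27 and 71.7 and 89.7 RPKM, 61.4 times higher (5.13 ± 0.23, 1.40e-05). OsGI (LOC_Os01g08700), which acts at dusk and promotes flowering, stood at 9.89 and 18.4 and 313 and 381 RPKM (4.58 ± 0.31, 3.81e-05). OsLHY was thus low, and OsPRR1 and OsGI were high, in both libraries at 13 °C.

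Of the other clock genes that were called, all but OsELF3-1 rose. OsFKF1 (LOC_Os11g34460), a blue-light receptor, went from 0.192 and 0.322 to 36.4 and 42.9 RPKM (5.01, adjusted p = 1.45e-05), and OsLUX (LOC_Os01g74020), of the evening complex, from 0.861 and 0.167 to 15.1 and 14.1 (3.40, 1.16e-04). OsPRR95 (LOC_Os09g36220) rose by 3.47 (4.68e-05), OsPRR59 (LOC_Os11g05930) by 3.43 (8.58e-05) and OsELF3-2 (LOC_Os01g38530) by 1.84 (3.75e-04). OsELF3-1 (LOC_Os06g05060) differed by -0.74 (0.0209) and lost its call without either library at 13 °C or replicate 1 at 25 °C. OsPRR37, OsPRR73, OsELF4a, OsZTL1 and OsZTL2 did not pass, with differences between -0.36 and 0.47, the highest being OsPRR37, which was called with the replicate block (0.0137). The levels at 11 °C were on the same side of 25 °C for OsLHY, at 113 and 115 RPKM, and for OsPRR1, at 140.4 and 185. Since time of day sets these genes, their part in the other differences was not tested.

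Light and flowering regulators beyond the clock gave 14 rises and 13 falls among 54. A CONSTANS zinc finger gene (LOC_Os05g51690), of the family that reads day length, rose from 4.09 and 6.45 to 217 and 291 RPKM (5.36, adjusted p = 1.76e-05), and CONSTANS-LIKE 2 (LOC_Os09g06464) fell from 228 and 174 to 28.8 and 35.5 (-2.60, 1.27e-04). The blue-light receptor phototropin 1A (LOC_Os12g01140) fell from 11.9 and 9.88 to 1.24 and 1.03 RPKM (-2.47, 2.23e-04). 7 falls were called without replicate 1 at 13 °C and 20 with the replicate block.

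**Figure D5:**
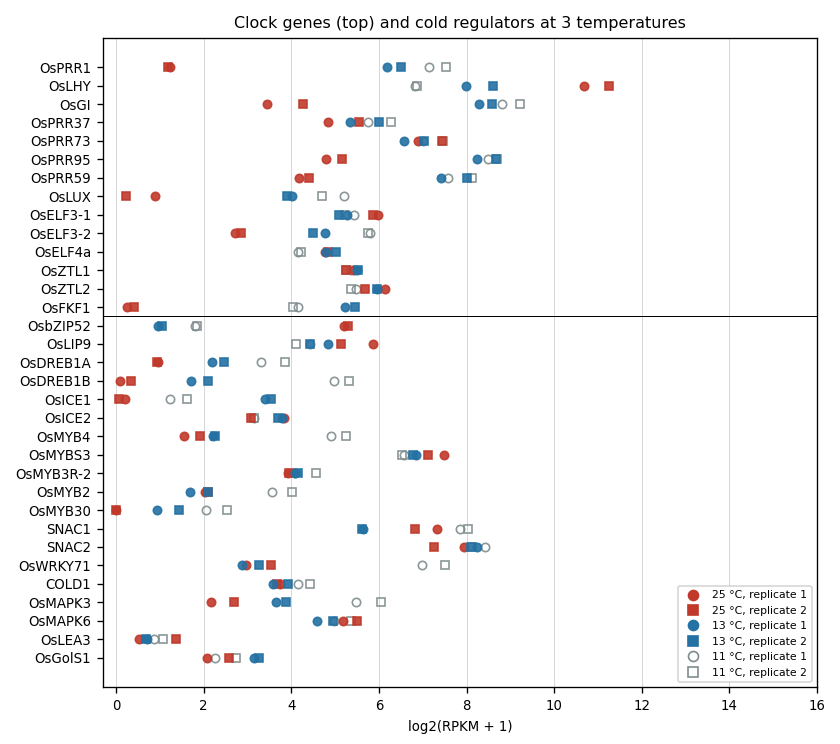
Level of 14 clock genes (above the line) and 19 tested cold regulators (below it) as log2(RPKM + 1), 1 point a library, circles for replicate 1 and squares for replicate 2. Red is 25 °C, blue is 13 °C and open grey is 11 °C. OsPRR1, OsGI and OsFKF1 lie far to the right of 25 °C at 13 °C and OsLHY to the left, while OsDREB1B, OsMYB4 and OsWRKY71 lie farthest to the right at 11 °C.

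Known cold regulators gave few large changes at 13 °C. Of 23 looked up by locus, 19 were tested, 6 rose, 3 fell and 10 did not pass (median 0.18). Rises were 31.6% and falls 15.8% of those tested, against 26.4% and 17.0% of all tested loci. OsDREB1A (LOC_Os09g35030) stood at 0.952 and 0.920 RPKM at 25 °C and 3.54 and 4.51 at 13 °C (1.37, adjusted p = 0.00483), and OsDREB1B (LOC_Os09g35010) at 0.0638 and 0.277 and 2.28 and 3.31 (1.69, 0.00161). Both activate protective genes through the dehydration-responsive element, and both remained under 5 RPKM in each library at 13 °C. OsICE1 (LOC_Os11g32100), whose Arabidopsis counterpart switches on DREB1 genes, went from 0.159 and 0.0554 to 9.54 and 10.6 RPKM (3.32 ± 0.23, 4.20e-05), the largest rise of the list, and stood at 1.34 and 2.06 at 11 °C. OsMYB30 (LOC_Os02g41510) rose from 0 in both libraries to 0.905 and 1.69 RPKM (1.18, 0.0064), OsMAPK3 (LOC_Os03g17700) by 1.33 (0.00736) and OsGolS1 (LOC_Os03g20120) by 0.88 (0.0393), the last with a call lost without either library at 13 °C.

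In the other direction, OsbZIP52 (LOC_Os06g45140), a bZIP factor, fell from 35.9 and 38.1 to 0.958 and 1.06 RPKM (-4.24, adjusted p = 1.91e-05) and SNAC1 (LOC_Os03g60080), a NAC factor of stomatal closure, from 159 and 112 to 48.5 and 48.3 (-1.44, 0.00189). The dehydrin OsLIP9 (LOC_Os02g44870) stood at 57.7 and 34.02 and 27.7 and 20.5 RPKM (-0.87, 0.0486), a call that most alternatives did not keep. OsMYB4 (LOC_Os04g43680) stood at 1.92 and 2.77 and 3.66 and 3.78 RPKM (0.51, 0.145), OsMYBS3 (LOC_Os10g41200) at 177 and 139 and 114 and 109 (-0.49, 0.102) and the G-protein regulator COLD1 (LOC_Os04g51180) at 12.5 and 11.7 and 10.99 and 14.3 (0.05, 0.883). None of these 3 passed, and the COLD1 groups overlapped. The block called OsMYB4 higher (0.0202) and OsMYBS3 lower (0.0238), and the list gave 5 falls. OsDREB1C, OsTPP1, OsTPP2 and OsRAB16A were below the level needed for a test, at no more than 1.03 RPKM in any library.

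Of the 10 LEA, dehydrin and cold-regulated protein genes found by name, 5 rose and 2 fell. Abscisic stress-ripening protein 1 (LOC_Os01g72910) went from 0.0935 and 0.813 to 5.90 and 7.96 RPKM (2.48, adjusted p = 6.56e-04), and a Lea14-A gene (LOC_Os01g12580) from 1.05 and 0.564 to 5.83 and 5.74 (1.92, 7.36e-04). A low temperature-induced protein lt101.2 (LOC_Os03g17790) went against its name, from 66.02 and 29.6 to 1.93 and 1.44 RPKM (-4.08, 1.29e-04). The most abundant member, Lea5-D (LOC_Os01g21250, named after its values were seen), stood at 1569 and 1166 and 1414 and 1479 RPKM and did not pass (0.10, 0.818). 1 fall was called under either scaling, and likewise without any 1 library other than replicate 2 at 25 °C.

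Transcription factor families rose at 21.3% to 33.9% and fell at 13.6% to 22.2% of their loci, with strong single members. Over all tested loci it was 26.4% and 17.0%, and AP2/ERF and bHLH or bZIP factors lay above both. AP2/ERF factors gave 21 rises and 13 falls among 62, WRKY factors 16 and 8 among 59, NAC factors 14 and 12 among 54, MYB factors 17 and 11 among 66, bHLH and bZIP factors 23 and 13 among 69 and homeobox factors 10 and 8 among 47. ERF071 (LOC_Os01g21120) went from 0 and 0.108 to 32.2 and 49.2 RPKM (5.28, adjusted p = 1.86e-05) and ERF008 (LOC_Os06g07030) from 82.9 and 59.7 to 0.771 and 1.43 (-5.10, 1.77e-05). The NAC factor 45 (LOC_Os10g42130) rose from 0.0641 and 0.335 to 39.5 and 46.4 RPKM (5.20, 1.56e-05), and NAC 21/22 (LOC_Os08g10080) fell from 143 and 121 to 2.55 and 2.64 (-5.20, 1.20e-05). A MYB related to maize Zm38 (LOC_Os08g43550), of a group that represses phenylpropanoid genes, fell from 77.3 and 68.8 to 0.942 and 0.710 RPKM (-5.34, 1.72e-05) and bHLH113 (LOC_Os04g41570) rose from 13.96 and 19.4 to 265 and 339 (4.10, 3.05e-05). Without replicate 2 at 13 °C, 12 bHLH or bZIP and 6 homeobox rises were called, and 4 homeobox falls without replicate 1. Without replicate 1 at 25 °C, bHLH or bZIP rises numbered 13, and without replicate 2 at 25 °C homeobox falls numbered 5. Under trimmed-mean scaling WRKY factors gave 14 rises and 15 falls and bHLH and bZIP factors 21 falls, and under quantile scaling MYB factors gave 17 falls. The replicate block gave 15 WRKY and 21 bHLH or bZIP falls, and 28 MYB and 17 homeobox rises.

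Chaperone genes changed in both directions. Of 70 heat shock proteins, heat stress factors and chaperonins, 24 rose and 15 fell, and their share of reads was 0.755% and 0.669% at 25 °C and 0.388% and 0.427% at 13 °C. The heat stress factors A-3 (LOC_Os02g32590, 0.376 and 0.679 to 18.9 and 27.5 RPKM, 3.97, adjusted p = 3.75e-05) and A-2b (LOC_Os07g08140, 0.573 and 0.332 to 15.8 and 16.4, 3.56, 2.54e-05) rose. Small heat shock proteins of class V (LOC_Os07g33350, 44.9 and 47.00 to 3.04 and 3.73 RPKM, -3.43, 3.00e-05) and class I (LOC_Os03g15960, 9.02 and 11.1 to 0.228 and 0.412, -3.06, 7.12e-05) fell. These are the strongest rises and falls of the list, and no count of all heat stress factors or all small heat shock proteins was made. DnaJ genes fell at 15 and rose at 8 of 67 loci, with 24 falls under trimmed-mean scaling and 9 without replicate 1 at 13 °C. The replicate block gave 17 DnaJ rises and 24 falls.

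Of the genes for protein turnover, proteasome subunits gave 12 rises and 2 falls among 54. These were 22.2% and 3.70%, against 26.4% and 17.0% of all tested loci. Autophagy genes gave no rise and 3 falls among 19, the falls being 15.8%. In the main fit, neither proteasome rises nor autophagy falls were thus more frequent than over all loci. This did not hold with the replicate block, where 25 of 54 proteasome genes rose and 6 of 19 autophagy genes fell. Over all 19429 loci the block gave 7129 rises and 5099 falls. Under trimmed-mean and quantile scaling, autophagy falls (5 and 6 of 19) were also more frequent than over all loci (4766 and 4922 of 19429). Ubiquitin ligases and F-box proteins rose at 82 and fell at 86 of 411 loci, and peptidases and their inhibitors gave 80 and 60 of 317. The RING-H2 ligase ATL72 (LOC_Os01g60730) rose from 0.0459 and 0.200 to 26.7 and 43.5 RPKM (4.97, adjusted p = 3.00e-05) and ATL3 (LOC_Os07g42610) fell from 20.7 and 17.99 to 0.0610 and 0.331 (-4.10, 2.54e-05). The subtilisin-like protease SDD1 (LOC_Os03g02750), whose Arabidopsis counterpart limits stomatal density, rose from 0.878 and 0.804 to 61.5 and 63.6 RPKM (5.11, 1.33e-05), and the aspartic protease of guard cells (LOC_Os02g48900) fell from 65.5 and 55.6 to 3.44 and 3.45 (-3.79, 2.39e-05). Without replicate 2 at 13 °C, 4 proteasome rises, 51 ligase rises and 46 peptidase rises were called, and 1 proteasome, 43 ligase and 37 peptidase falls without replicate 1. When replicate 1 at 25 °C was left out 4 proteasome rises were called, and 7 when replicate 1 at 13 °C was, and falls numbered 1 without replicate 2 at 13 or at 25 °C. Under trimmed-mean scaling there were 6 proteasome and 5 autophagy falls, and under quantile scaling 5 proteasome, 6 autophagy and 132 ligase falls. Under the block the proteasome gave 25 rises and 6 falls, autophagy 1 and 6, and ligases 134 falls, and 1 autophagy rise was called without replicate 1 at 13 °C. Splicing factors gave 20 rises and 13 falls among 108, and 12 rises without replicate 2 and 6 falls without replicate 1 at 13 °C. Without replicate 1 at 25 °C the rises numbered 13, trimmed-mean scaling gave 29 falls, and the replicate block 35 rises and 27 falls.

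Hormone genes are given by pathway. Ethylene and cytokinin genes fell more often than they rose, 21 against 9 of 54 (median -0.40). The ethylene-forming ACC oxidase LOC_Os05g05680 fell from 47.9 and 58.4 to 12.1 and 14.2 RPKM (-1.93, adjusted p = 5.62e-04) and a cytokinin-activating phosphoribohydrolase (LOC_Os09g37540) from 35.7 and 12.4 to 1.82 and 0.780 (-3.31, 8.74e-04). An ethylene receptor (LOC_Os05g06320), of a family that in Arabidopsis represses the response until ethylene binds, rose from 0.542 and 0.959 to 11.1 and 13.3 RPKM (2.92, 9.64e-05), and a cytokinin hydroxylase (LOC_Os09g23820) from 1.36 and 1.42 to 14.7 and 25.4 (3.09, 1.49e-04). The replicate block gave 15 rises in this list.

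Abscisic acid genes gave 10 rises and 5 falls among 23, 43.5% and 21.7% against 26.4% and 17.0% of all tested loci. An ABI5-like bZIP factor (LOC_Os07g48660) was at 0 in both libraries at 25 °C and at 7.15 and 8.76 RPKM at 13 °C (3.16, adjusted p = 4.73e-05), and abscisic acid hydroxylase 1 (LOC_Os02g47470), which breaks the hormone down, rose from 2.41 and 1.30 to 19.7 and 18.2 (2.84, 1.15e-04). The receptor PYL4 (LOC_Os05g39580) fell from 8.11 and 9.45 to 0.320 and 0.289 RPKM (-2.90, 8.17e-05) and zeaxanthin epoxidase of its synthesis (LOC_Os12g03070) from 66.7 and 87.7 to 21.1 and 25.8 (-1.67, 9.94e-04). Of 73 auxin genes 13 rose and 15 fell, of 32 jasmonate genes 6 and 6, and of 20 gibberellin and brassinosteroid genes 7 and 5. In that order these were 17.8% and 20.5%, 18.8% and 18.8%, and 35.0% and 25.0%. ARF10 (LOC_Os04g43910), an auxin response factor, rose from 0.121 and 0.169 to 9.01 and 11.5 RPKM (3.29, 6.55e-05), and gibberellin 20-oxidase 2 (LOC_Os05g34854), which makes precursors of active gibberellin, fell from 28.6 and 33.6 to 5.72 and 7.30 (-2.10, 3.74e-04). When replicate 2 at 13 °C was left out, 7 auxin and 3 jasmonate rises were called, and 3 abscisic acid and 2 gibberellin falls without replicate 1. Abscisic acid falls numbered 3 without replicate 1 at 25 °C as well. Under the block there were 23 auxin and 12 jasmonate rises and 8 gibberellin falls.

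Receptor-like kinases rose more often than they fell, 153 against 61 of 418, 36.6% and 14.6%. The cysteine-rich kinase 10 (LOC_Os07g43570) stood at 0.330 and 0.553 RPKM at 25 °C and 31.6 and 48.5 at 13 °C (4.80, adjusted p = 2.58e-05), while adjacent leucine-rich repeat kinases LOC_Os05g16930 (-4.56, 4.42e-05) and LOC_Os05g16920 (-3.99, 2.40e-05) fell. Calcium signalling genes gave 35 rises and 17 falls among 126, led by the kinase CIPK10 (LOC_Os03g22050, 1.46 and 1.94 to 33.5 and 47.2 RPKM, 3.92, 3.01e-05) and the calcium-binding protein KIC (LOC_Os02g03020, 197 and 106 to 6.61 and 6.17, -4.30, 4.63e-05). Protein phosphatases 2C gave 25 and 10 among 81, and MAP kinases 10 and 3 among 40. Without replicate 2 at 13 °C, 92 receptor kinase, 16 phosphatase and 6 MAP kinase rises were called, and 33 receptor kinase and 5 phosphatase falls without replicate 1. Receptor kinase rises numbered 98 without replicate 1 at 25 °C and falls 38 without replicate 2 at 25 °C. Under trimmed-mean scaling rises and falls were 36 and 28 in calcium signalling, 28 and 18 among phosphatases and 9 and 7 among MAP kinases. The block gave, in the same order, 54 and 26, 40 and 17, and 15 and 8. Disease resistance and pathogenesis-related genes fell at 50 and rose at 36 of 243 loci, with 77 falls under trimmed-mean scaling, 21 rises without replicate 2 and 31 falls without replicate 1 at 13 °C. Without replicate 2 at 25 °C, 33 falls were called, and with the replicate block 59 rises.

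Aquaporins, the water channels of membranes, gave 7 rises and 9 falls among 24, and their share of reads went from 0.553% and 0.427% to 0.300% and 0.319%. PIP2-7 (LOC_Os09g36930), of the plasma membrane group, stood at 6.32 and 4.59 RPKM at 25 °C and 332 and 366 at 13 °C, 63.95 times higher (5.77 ± 0.22, adjusted p = 1.14e-05). TIP4-1 (LOC_Os05g14240), of the vacuole group, rose from 7.87 and 5.81 to 95.7 and 91.3 RPKM (3.60, 2.66e-05), and TIP4-3 (LOC_Os01g13120) fell from 35.6 and 67.1 to 2.52 and 4.82 (-3.46, 5.30e-04). At 13 °C the abundant channel PIP1-1 (LOC_Os02g44630) had fallen from 1867 and 1438 to 403 and 477 RPKM (-1.90, 0.00168), while PIP2-2 (LOC_Os02g41860) stood at 102 and 80.01 and 143 and 136 (0.62, 0.139) and TIP1-1 (LOC_Os03g05290) at 159 and 250.3 and 207 and 301 (0.32, 0.409). These 3 channels were named after their values were seen, and neither PIP2-2 nor TIP1-1 passed, though PIP2-2 was called higher with the replicate block (0.0285). At 11 °C they stood at 47.97 and 27.9, 13.6 and 6.96 and 8.69 and 9.08 RPKM, below every library at 13 °C.

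Transport and lipid genes changed in both directions, and their shares stand beside 26.4% rises and 17.0% falls over all tested loci. ABC transporters gave 22 rises and 16 falls among 72 (30.6% and 22.2%). Ion and nitrogen transporters gave 35 and 30 among 141 (24.8% and 21.3%). The adjacent transporters LOC_Os01g65169 (0.0640 and 0.139 to 15.2 and 21.2 RPKM, 4.11, adjusted p = 5.71e-05) and LOC_Os01g65140 (0 and 0.0531 to 7.87 and 10.3, 3.29, 7.55e-05) of the NRT1/PTR family rose, and reads of the pair may be shared. Fatty acid and membrane lipid enzymes gave 39 rises and 44 falls among 178 (21.9% and 24.7%). Among them the galactolipid synthase MGD2 (LOC_Os08g20420), which makes plastid membrane lipid, was listed at 0 and 0.0580 RPKM at 25 °C and 27.5 and 40.6 at 13 °C (5.07, 2.40e-05), with 0.250 and 0.909 at 11 °C. Lipid transfer, wax and cutin genes gave 26 rises and 10 falls among 82 (31.7% and 12.2%), and 17 falls under trimmed-mean scaling and 18 with the replicate block. Without replicate 2 at 13 °C, 11 ABC and 22 ion transporter rises were called, and 9 ABC transporter falls without replicate 1.

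Some lists of detoxification, redox and secondary metabolism genes fell more often than they rose, and others did not. Glutathione S-transferases fell at 18 and rose at 8 of 55 loci, cytochromes P450 fell at 33 and rose at 21 of 94, and phenylpropanoid and flavonoid genes fell at 43 and rose at 32 of 120. A dihydroflavonol reductase (LOC_Os03g08624), of the branch toward anthocyanins, fell from 52.1 and 79.5 to 0.195 and 0.442 RPKM (-5.64, adjusted p = 1.72e-05). Peroxidases gave 22 rises and 17 falls among 60, with peroxidase 24 (LOC_Os01g16450) rising from 0.373 and 0.195 to 39.4 and 45.6 RPKM (5.08, 1.72e-05). Of 108 thioredoxins and antioxidant enzymes 29 rose and 24 fell, the sharpest fall being glutaredoxin-C1 (LOC_Os01g27140, 85.5 and 75.5 to 0.537 and 0.834 RPKM, -5.60, 1.45e-05) and a strong rise the plastid peroxiredoxin 2E-2 (LOC_Os02g09940, 0.477 and 0.830 to 31.5 and 37.4, 4.43, 2.06e-05). Isoprenoid and carotenoid genes rose at 15 and fell at 16 of 56 loci. 19 antioxidant and 9 isoprenoid rises were called without replicate 2 at 13 °C. Zinc finger proteins gave 42 rises and 36 falls among 213 (21 falls without replicate 1 at 13 °C), and transposable element genes 22 and 8 among 78 (13 rises without replicate 1 at 25 °C, or 14 when replicate 2 at 13 °C was left out). Under quantile scaling zinc finger falls numbered 55 and transposable element falls 15. The replicate block gave 67 rises and 56 falls of zinc finger genes, 36 and 13 of transposable element genes, 13 glutathione S-transferase rises and 37 antioxidant falls.

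Leaf rolling, the trait in the series title, has known genes in rice, of which 13 were looked up and 8 were tested. ROC5 (LOC_Os02g45250), a homeobox factor that limits bulliform cells, stood at 19.01 and 18.6 RPKM at 25 °C and 34.8 and 39.4 at 13 °C and rose (0.94, adjusted p = 0.0127). NAL1 (LOC_Os04g52479), which sets leaf width, fell from 20.4 and 27.7 to 9.49 and 13.7 RPKM (-0.99, 0.0208), and ACL1 (LOC_Os04g33860), which promotes bulliform cells, from 10.3 and 9.93 to 5.51 and 5.04 (-0.83, 0.0216). The 2 groups did not overlap in these 3 genes, but the rise of ROC5 was not called without replicate 2 at 13 °C, and neither fall without replicate 1 at 13 °C or replicate 2 at 25 °C. In the fits without replicate 2 at 13 °C or replicate 1 at 25 °C, 1 fall was called. SRL1 (-0.60, 0.0888), CFL1 (0.20, 0.599), ADL1 (0.40, 0.369), RL14 (-0.15, 0.647) and OsZHD1 (0.82, 0.0739) did not pass. With the replicate block ADL1 (0.0324) and OsZHD1 (0.00359) were called higher and SRL1 lower (0.0104), and OsZHD1 and SRL1 also under both scalings. SLL1, NAL7 and OsAGO7 stayed under 1 RPKM, and REL1 and OsMYB103L carry upper-case identifiers, so no reading is given.

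The libraries at 13 °C were also compared directly with those at 11 °C. In that test, 3536 loci were higher and 3358 lower at 13 than at 11 °C, 18.2% and 17.3% of those tested (limma, the same fit). The 25 °C libraries are shared by the 2 comparisons with the warm control, so only values are set side by side here. Photosystem genes were higher at 13 than at 11 °C at 16 of 33 loci and lower at 2, Calvin cycle genes at 19 and 1 of 32, cytosolic ribosomal proteins at 118 and 2 of 206, and starch genes at 22 and 6 of 44. The share of reads on the cytosolic ribosome list was 2.22% and 2.24% at 13 °C and 1.38% and 1.38% at 11 °C, and on the starch list 0.793% and 1.14% and 0.284% and 0.360%. On both lists the libraries at 13 °C stood above all 4 others. In the opposite direction, WRKY factors were higher at 13 °C at 4 and lower at 22 of 59 loci, AP2/ERF factors at 11 and 28 of 62 and cold regulators at 1 and 9 of 19.

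Single regulators set the temperatures apart by large factors. OsDREB1B stood at 2.28 and 3.31 RPKM at 13 °C and 30.4 and 38.9 at 11 °C (13 minus 11 °C, -3.23, adjusted p = 1.82e-04), OsMYB4 at 3.66 and 3.78 and 29.1 and 36.8 (-2.84, 2.36e-04) and OsWRKY71 (LOC_Os02g08440) at 6.30 and 8.58 and 126 and 180.5 (-4.18, 1.06e-04). OsICE1 was the cold regulator called higher at 13 than at 11 °C (2.04, 5.74e-04). The counts over all loci varied with the libraries kept. Higher at 13 °C were 1998 loci when replicate 1 at 11 °C was left out, 2323 when replicate 2 at 11 °C was, and 1853 when replicate 2 at 13 °C was. Lower at 13 °C were 1801 when replicate 2 at 11 °C was left out, and 1825 when replicate 1 at 13 °C was.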

How the data were processed

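RNA of the 6 shoot libraries was extracted with Trizol, prepared with an NEBNext Ultra kit and sequenced on an Illumina HiSeq, per the labels' protocols. Reads were aligned with TopHat2 2.0.12, per the submitters' processing notes. For the genome build, annotation, counter and strand setting the entry is: not given in the sources used here.

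The authors deposited RPKM values per locus, with coordinates, protein matches and GO terms in the same table, per the file headers. Within a tolerance of 0.02 reads, all values of 19429 of 19429 tested loci (100.0%) were whole multiples of what 1 read is worth, which gave each library's total. Identifiers written LOC_OS (23650 loci) were left out, as 2021 held a value in a replicate 1 library and 0 in a replicate 2 library.

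Values were tested as log2(RPKM + 1) with limma 3.58.1 (R 4.3.3), all 6 libraries in 1 fit with a mean-variance trend, and adjusted over the 19429 loci. limma's voom on the recovered reads called 5132 loci higher and 3264 lower. Deviations of same-numbered libraries from their temperature means correlated at 0.607 to 0.711 in all 3 pairs of temperatures, so the replicate numbers of the labels were taken to pair the libraries, though no label names a shared batch. The fit without that term stayed the main one, and the replicate block, over all 6 libraries, is printed where it changes a call. Alternatives changed the pseudocount, filter, scaling, weights, libraries and replicate term. Gene lists came from words of the descriptions, GO terms or loci, and reads of near-identical or adjacent loci may be shared within them. Named in the text were the 8 largest described rises and falls, the 5 most abundant called loci at 13 and at 25 °C, and up to 2 rises and 2 falls a list. All clock and leaf rolling loci were named too, with the 3 highest and lowest differences between 13 and 11 °C. Of the tested cold regulators, all that were called were named, and only some of those that did not pass. Marker loci, and members said to be so, were added. The comparison, members and lists were chosen with earlier results of these data known.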

Additional observations from a re-analysis of the deposited data

Results flagged for a closer look

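There were 6 described loci with the largest differences between 13 and 11 °C among those called in both the comparison of 13 with 25 °C and that of 13 with 11 °C. Each difference was tested directly in the fit over all 6 libraries (limma, adjusted over all tested loci).

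Lower at 13 °C were the following. The auxin-repressed protein LOC_Os11g44810 had RPKM of 843 and 661 at 25 °C, 21.7 and 16.2 at 13 °C and 1365 and 869.7 in the 11 °C libraries, a difference of -5.79 between 13 and 11 °C (adjusted p = 4.62e-05). PsbR of photosystem II, LOC_Os07g05360, stood at 1446 and 1677, 1.76 and 1.76 and 132 and 95.6 RPKM (-5.36, 4.62e-05). Both were thus lowest at the middle temperature in every library. Glutamate synthase 2 of ammonium assimilation, LOC_Os05g48200, stood at 3.50 and 4.01, 6.72 and 7.50 and 249 and 362 RPKM (-5.22, 4.62e-05), and its difference between 13 and 25 °C, 0.77, lost its call without any single library at 13 or 25 °C.

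Higher at 13 °C was the beta-amylase LOC_Os07g35880, at 2.43 and 4.38, 75.97 and 132 and 0.684 and 0.976 RPKM (5.79, 6.97e-05). A chloroplast phosphorylmutase, LOC_Os12g08760, stood at 1350.5 and 1153, 335 and 353 and 5.04 and 3.93 RPKM (5.98, 4.62e-05). A sesquiphellandrene synthase of terpene formation, LOC_Os08g04500, stood at 80.01 and 88.7, 125 and 188 and 0.469 and 0.651 RPKM (6.63, 4.62e-05), and its rise from 25 to 13 °C, 0.86, was not called without replicate 2 at 13 °C or either library at 25 °C.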

How the results depend on the processing

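Under other pseudocounts, filters, scalings and weights, and with the 4 libraries alone, 3671 to 5355 loci were called higher and 2565 to 4922 lower at 13 than at 25 °C. The lowest counts, 3671 and 2565, came from a stricter filter that left 13669 loci to test. Without a filter 32150 loci were tested, and otherwise 19429. With the replicate number as a block, 7129 were called higher and 5099 lower. The block called 5786 loci higher and 5572 lower at 13 than at 11 °C. Where it changed the call of a locus described in the text, its p stands beside the value, and it changed no other call among these loci. Its counts stand beside each list that it moved by over 1.5 times. With any 1 library left out, 3326 to 4912 loci were called higher and 2025 to 3076 lower at 13 than at 25 °C, and 1853 to 3611 higher and 1801 to 3387 lower than at 11 °C. Of 320 named loci, 291 were called and 268 of them under every setting. Scaling of the comparison with 11 °C was added after seeing the data, and gave 4402 and 4378 by quantile and 4303 and 4320 by trimmed mean. Promoter motif searches were not run, as no sequence was used here. With 2 libraries a group, calls of low or modest differences depend on single libraries, and an RPKM below about 0.0626 is under 1 read on a gene of 1 kb.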

Other observations

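The GO terms of the table group loci by compartment. Of 116 peroxisome loci 18 rose and 29 fell (median -0.11). The peroxisomal acetate ligase AAE7 (LOC_Os03g19250), which feeds acetate to the glyoxylate cycle in Arabidopsis, stood at 149.6 and 112 RPKM at 25 °C and 5.90 and 6.79 at 13 °C (-4.15, adjusted p = 2.07e-05). Acyl-CoA oxidase 2 (LOC_Os11g39220), the first step of fatty acid beta-oxidation, fell from 10.4 and 12.3 to 0.527 and 0.477 RPKM (-3.04, 6.27e-05), and the thiolase of its last step (LOC_Os02g57260) from 252 and 306 to 43.3 and 48.1 (-2.58, 1.23e-04). These genes and isocitrate lyase were low in both libraries at 13 °C. Polyamine oxidase 2 (LOC_Os04g57550), which breaks down polyamines, rose from 15.2 and 24.9 to 158 and 189.5 RPKM (3.09, 1.54e-04). Called rises numbered 11 without replicate 2 at 13 °C, and 16 falls without replicate 1, against 48 falls with the replicate block.

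Loci with the GO term for response to cold, 167 in all, rose at 50 and fell at 39 (median -0.01), and the order of rises and falls turned under quantile scaling. A mitochondrial glycine-rich RNA-binding protein (LOC_Os01g68790) rose from 0.811 and 0.538 to 33.5 and 46.5 RPKM (4.60, 2.0e-05). Loci of the response to water deprivation rose at 36 and fell at 36 of 145, with the calcium-dependent membrane protein annexin D2 (LOC_Os09g20330) going from 0 and 0.0499 to 15.3 and 24.6 RPKM (4.32, 4.45e-05). Endoplasmic reticulum loci rose at 86 and fell at 112 of 557, cell wall loci at 79 and 32 of 192, and nucleolus loci at 127 and 18 of 262. A universal stress protein (LOC_Os05g28740) fell from 224 and 282 to 5.93 and 4.89 RPKM (-5.30, 1.14e-05). Without replicate 2 at 13 °C, 33 cold and 47 endoplasmic reticulum rises were called, and 21 cold, 22 water deprivation, 66 endoplasmic reticulum and 9 nucleolus falls without replicate 1. Nucleolus falls also numbered 9 without replicate 2 at 13 °C, and cold falls 25 when replicate 2 at 25 °C was left out. Under trimmed-mean scaling or the replicate block 31 nucleolus falls were called, and the block gave 143 endoplasmic reticulum rises and 179 falls.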
